A study of Mus musculus with 12 samples.

Results

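Mast cells read pathogens and cytokines through a shared machinery of innate sensors, interferon signalling and NF-κB. Toll-like receptors and NOD-like receptors bind microbial products, adaptors such as Myd88 and Traf6 pass the signal on, and NF-κB dimers are released from inhibitors of the IκB family to enter the nucleus. Interferons and many cytokines signal in parallel through JAK kinases and STAT transcription factors, while IRF transcription factors control interferon and other immune genes. Crosslinking of the IgE receptor also activates NF-κB in mast cells. Members were taken from the endogenous probes of a myeloid panel by name, as those starting with Tlr, Nlr, Nod, Myd88, Irak, Traf, Nfkb, Rel, Irf, Ifn, Ifi, Isg, Oas, Mx, Stat, Jak or Gbp. This rule found 49 of the 734 endogenous probes, and none of them starts with Irak, Rel, Oas or Gbp.

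Bone marrow of mice was cultured with IL-3 to give mast cells, which were edited by CRISPR/Cas9, either at Mettl3, the catalytic subunit of the complex that methylates adenosines in mRNA (Mettl3 KO), or at Kit, the receptor for stem cell factor, as the edited control (c-Kit KO). In both genotypes a ZsGreen reporter was inserted at the cut site and cells high in ZsGreen were sorted, so no unedited cells were compared. Each genotype was left resting or received IgE and antigen complexes for 4 h, which gave 4 groups of 3 libraries described by the study as independent biological replicates. Barcodes of the nCounter assay, which are counted without amplification, gave 504238 to 737910 counts on endogenous probes per library. Counts below are scaled, meaning that each library was divided by a factor from the geometric mean of 20 housekeeping probes. Probes differ in hybridization efficiency, so levels are compared between libraries and not between genes.

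Mettl3 has no probe on the panel. The Kit probe starts at base 4275 of its transcript, in the last of 21 exons. It lies outside exon 2, where the guides cut (bases 204 to 476). The inserted reporter carried a polyA-STOP cassette, so transcripts that end in it would lack the probe. How many transcripts end there was not tested. In unstimulated libraries 1, 2 and 3 the scaled Kit counts were 1856, 2856 and 2826 with the label c-Kit KO and 4057, 2533 and 2456 with the label Mettl3 KO. In stimulated libraries they were 1159, 1613 and 738 with the label c-Kit KO and 1845, 1771 and 1550 with the label Mettl3 KO. Kit was lower with the label c-Kit KO in the stimulated pairs and in the unstimulated pair of replicate 1. It was higher in the unstimulated pairs of replicates 2 and 3, so these counts do not settle the edit. Genotypes are named below as the libraries are labelled.

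All 11 mast cell markers were detected, and Cpa3, a granule carboxypeptidase, had the highest counts. Their summed scaled counts in libraries 1, 2 and 3 with the label c-Kit KO were 438110, 460648 and 355331 at rest and 244276, 305024 and 183823 after stimulation. With the label Mettl3 KO they were 368640, 504071 and 399469 at rest and 165872, 258160 and 176573 after stimulation. The sums were lower after stimulation in every pair, but the markers did not move together. Ms4a2, the β chain of the IgE receptor, fell in both genotypes (log2 fold change -1.82 and -2.19, adjusted p = 0.00302 and 0.000636), and Hdc, the histidine decarboxylase, rose in both (2.22 and 2.27, adjusted p = 0.0369 and 0.0223). Kit was called lower in c-Kit KO cells and Fcer1a and Cpa3 in Mettl3 KO cells, and the other 6 markers were not called. Sums of the following lists include the probes that were not detected, so they hold background counts. Of 9 macrophage markers 7 passed the detection rule of 20 raw counts in at least 3 libraries, and Mertk and Siglec1 did not. Cx3cr1 reached 78 to 2430 raw counts, and none of the others exceeded 41. The macrophage sums were 1811, 1789 and 2324 at rest and 560, 508 and 175 after stimulation with the label c-Kit KO. With the label Mettl3 KO they were 1706, 1490 and 1891 at rest and 276, 281 and 242 after stimulation. Cx3cr1 made up most of the resting sums and fell with log2 fold changes of -2.66 (adjusted p = 0.00652) and -3.71 (adjusted p = 0.000648) in the 2 genotypes, and the other 6 detected macrophage markers were not called. Of 6 dendritic cell markers 2 were detected, led by Cd74, with sums over all 6 of 64.7 to 103 counts, while Flt3, Clec9a, Xcr1 and H2-Aa were not. Of 8 neutrophil markers 2 were detected, led by Mpo, with sums over all 8 of 73.8 to 130, while Ly6g, Elane, S100a8, Camp, Csf3r and Cxcr2 were not. Of 5 eosinophil markers only Siglecf was detected, with sums over all 5 of 59.9 to 184, while Epx, Prg2, Prg3 and Ear6 were not. Siglecf rose after stimulation with log2 fold changes of 1.58 and 2.18 (adjusted p = 0.038 and 0.00486), but its resting counts were at background, so the size of the fold is uncertain. Of 4 B and T cell markers 2 were detected, led by Cd247, with sums over all 4 of 60.1 to 101, while Cd28 and Icos were not. The part of other cells in the results below was not tested, and in such bulk RNA fewer cells of a type and less RNA per cell cannot be told apart.

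Of the 49 members, 39 reached 20 raw counts in at least 3 libraries and are called detected. The share was 79.6%, beside 73.9% of the other endogenous probes. Not detected were the receptors Tlr7, Tlr8 and Tlr11, the peptidoglycan sensor Nod1, the factors Irf7 and Irf8, the type I interferon Ifnb1 and the interferon-induced Ifit1bl1, Ifit1bl2 and Mx2. Their raw counts lay between 3 and 30 (median 13), within the 1 to 38 counts of the 8 negative control probes (median 15.5). By another rule, 33 members exceeded the negative control mean plus 2 SD in at least 3 libraries. Ifng, Nod2, Tlr2, Tlr5 and Tlr13 did so in 0 libraries and Tlr3 in 1, so these 6 detected members cannot be told from background. Of the 39, 25 had at least 20 counts in all 12 libraries.

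Among the sensors, Tlr4, the receptor for bacterial lipopolysaccharide, reached 20 counts in all 12 libraries, with 230, 364 and 149 counts in unstimulated c-Kit KO libraries and 341, 366 and 161 in unstimulated Mettl3 KO libraries. Nlrp3, the sensor of an inflammasome that activates caspase 1, was also present in all libraries. Tlr6, which pairs with Tlr2 to bind bacterial lipopeptides, and Tlr9, a receptor for unmethylated CpG DNA, ranged from 43.0 to 113 and from 21.6 to 57.4 counts. Tlr1 exceeded the negative control mean plus 2 SD in 4 libraries and Tlr12 in 3. The adaptor Myd88, shared by most Toll-like receptors, ranged from 207 to 356 counts.

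Stimulation with IgE and antigen was compared with rest within each genotype. The model left out the pairing by replicate number, and calls with that number as a block are given further below. In c-Kit KO cells 2 of the 39 detected members rose, Irf4 and Traf1, or 5.13% beside 12.1% of the 545 probes tested. Another 2 fell, Ifnar2 and Stat4, or 5.13% beside 6.79%. In Mettl3 KO cells 8 rose, which are Irf4, Irf5, Isg15, Nfkbia, Nfkbiz, Stat5a, Traf1 and Traf2, or 20.5% beside 22.0%. Ifnar2, Stat4 and Tlr6 fell, or 7.69% beside 10.6%. These shares lie near or below those over all probes. The 4 members called in c-Kit KO cells were also called in Mettl3 KO cells, which makes 100% of the first list and 36.4% of the second, beside 93.2% and 53.9% for the 96 of all probes called in both. The median log2 fold change of the members was -0.24 in c-Kit KO and 0.02 in Mettl3 KO cells, beside -0.05 and 0.02 over all probes.

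**Figure D1:**
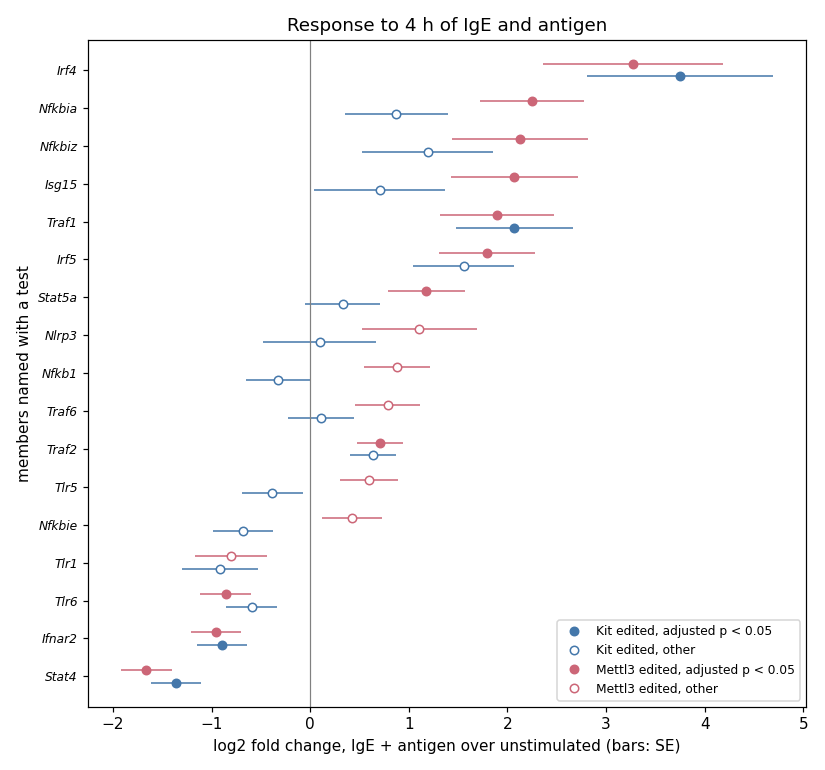
Log2 fold change of the 17 members named with a test in any comparison, after 4 h of IgE and antigen (x axis), in libraries labelled Kit edited (c-Kit KO, blue) and Mettl3 edited (Mettl3 KO, red), 3 libraries a group. Bars are standard errors, and filled points have an adjusted p under 0.05. Irf4 lies farthest to the right and Stat4 farthest to the left in both.

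Among IRF transcription factors, Irf4 was called higher in both genotypes. Irf4 (chr13:30933209-30950959, plus strand, GRCm39), a lymphoid and myeloid IRF family member that acts without interferon, had 11.0, 19.5 and 19.7 scaled counts in unstimulated c-Kit KO libraries 1, 2 and 3 and 75.2, 42.4 and 569 in stimulated ones. With the label Mettl3 KO it had 29.4, 22.4 and 22.6 counts at rest and 114, 126 and 482 after stimulation. Replicate 3 stood far above the other stimulated libraries in both genotypes, and stimulated and unstimulated libraries did not overlap. Resting counts were at or near background, so the size of the fold is uncertain. The log2 fold change was 3.75 (SE 0.94, adjusted p = 0.0184) in c-Kit KO and 3.27 (SE 0.91, adjusted p = 0.0172) in Mettl3 KO cells by edgeR's quasi-likelihood test. Irf5 (chr6:29526276-29541870, plus strand), which acts downstream of Myd88, had 5.48, 8.03 and 17.9 counts at rest and 19.1, 23.2 and 53.5 after stimulation in c-Kit KO libraries. Mettl3 KO libraries went from 17.2, 12.6 and 20.8 to 38.7, 82.4 and 58.8 counts. Every pair was higher after stimulation, but resting counts were at background, so the size of the fold is uncertain. Irf5 reached 20 counts in 2 unstimulated and 5 stimulated libraries, so it passed the detection rule only through the stimulated ones. The log2 fold change of Irf5 was 1.79 (SE 0.48, adjusted p = 0.0145) in Mettl3 KO cells and 1.56 (SE 0.51, adjusted p = 0.0538) in c-Kit KO cells. The latter was called by 8 of 28 alternatives, among them the replicate number as a block (adjusted p = 0.018, with 0.0122 to 0.259 over all alternatives). Irf1, an interferon-induced activator, had group means of 146 at rest and 73.7 after stimulation in c-Kit KO cells and of 175 and 111 in Mettl3 KO cells, and was not called, although it was in c-Kit KO cells with the block (adjusted p = 0.0887 without and 0.0358 with it, and 0.0358 to 0.34 over all alternatives). Irf2 and Irf3 stayed between 108 and 309 counts and were not called.

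Of the TRAF adaptors, Traf1 and Traf2 responded. Traf1 (chr2:34831762-34851837, minus strand), an adaptor of TNF receptor signalling and itself a known NF-κB target, had 9.59, 20.7 and 16.1 counts in resting and 18.0, 81.7 and 96.7 in stimulated c-Kit KO libraries. Counts with the label Mettl3 KO were 21.3, 30.8 and 13.9 at rest and 46.8, 116 and 80.3 after stimulation. The stimulated c-Kit KO library of replicate 1 lay within the range of resting libraries. Resting counts were at background, so the size of the fold is uncertain. Traf1 reached 20 counts in 2 unstimulated and 5 stimulated libraries, so it passed the detection rule only through the stimulated ones. Log2 fold changes were 2.07 (SE 0.59, adjusted p = 0.0317) and 1.89 (SE 0.58, adjusted p = 0.026) in c-Kit KO and Mettl3 KO cells. Traf2, which recruits IAP ubiquitin ligases to TNF receptors, rose in Mettl3 KO cells from 268 ± 35.5 to 438 ± 35.2 counts (mean ± SD, n = 3), a log2 fold change of 0.71 (SE 0.23, adjusted p = 0.0377). In c-Kit KO cells Traf2 went from 227 ± 43.8 to 354 ± 56.9, a log2 fold change of 0.64 that missed the threshold (SE 0.24, adjusted p = 0.0818). Traf6, the ubiquitin ligase downstream of Myd88, and Trafd1, a regulator of Toll-like receptor signalling, were not called in either genotype, although Traf6 was called in Mettl3 KO cells by 4 of 29 alternatives, among them the block (adjusted p = 0.0946 without and 0.0393 with it, and 0.0249 to 0.31 over all alternatives).

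The NF-κB genes on the panel encode 1 subunit and 3 IκB proteins. Nfkbia (chr12:55535332-55539432, minus strand) encodes IκBα, the inhibitor that is degraded on activation and resynthesized as an NF-κB target. Its counts were 16.4, 51.6 and 34.1 at rest and 32.9, 84.7 and 70.3 after stimulation in c-Kit KO libraries, and 42.6, 42.0 and 22.6 at rest and 164, 260 and 85.3 after stimulation in Mettl3 KO libraries. All 6 pairs were higher after stimulation, with overlapping ranges in c-Kit KO cells and separate ranges in Mettl3 KO cells. The log2 fold change was 2.25 (SE 0.53, adjusted p = 0.00725) in Mettl3 KO and 0.87 (SE 0.52, adjusted p = 0.285) in c-Kit KO cells. Nfkbiz (chr16:55631738-55659262, minus strand) encodes the nuclear IκBζ, which is needed for Il6 and other secondary response genes. It had 267, 134 and 85.2 counts at rest and 684, 282 and 143 after stimulation in c-Kit KO libraries, and 197, 76.9 and 93.7 at rest and 653, 774 and 185 after stimulation in Mettl3 KO libraries. All 6 pairs were higher after stimulation, with overlapping ranges in both genotypes. Log2 fold changes were 2.13 (SE 0.69, adjusted p = 0.0335) in Mettl3 KO and 1.19 (SE 0.67, adjusted p = 0.251) in c-Kit KO cells. The replicate block gave an adjusted p of 0.0551 in c-Kit KO cells. There 1 of 29 alternatives called Nfkbiz, the block without the stimulated Mettl3 KO library 3 (adjusted p = 0.0435).

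Nfkb1 and Nfkbie were not called in either stimulation comparison. Nfkb1 (chr3:135290264-135397742, minus strand), the gene of p105 and p50, had 951, 952 and 817 counts at rest and 645, 807 and 716 after stimulation in c-Kit KO libraries. The Mettl3 KO libraries had 1031, 978 and 816 counts at rest and 1697, 2633 and 869 after stimulation. All c-Kit KO pairs were lower and all Mettl3 KO pairs higher after stimulation, replicate 3 of the latter by little. Neither change was called (log2 fold change -0.33, SE 0.33, adjusted p = 0.536 in c-Kit KO and 0.88, SE 0.33, adjusted p = 0.0602 in Mettl3 KO cells), and the latter was called by 7 of 29 alternatives, among them the replicate block (adjusted p = 0.0398, with 0.00415 to 0.399 over all alternatives). Nfkbie (chr17:45866585-45874661, plus strand), which encodes IκBε, had 175, 107 and 173 counts at rest and 84.8, 80.7 and 118 after stimulation in c-Kit KO libraries. Mettl3 KO libraries held 137, 120 and 154 counts at rest and 223, 202 and 128 after stimulation. Its stimulated Mettl3 KO library of replicate 3 lay within the resting range (log2 fold change -0.68, SE 0.30, adjusted p = 0.132 in c-Kit KO and 0.42, SE 0.30, adjusted p = 0.323 in Mettl3 KO cells). In each genotype 1 of 29 alternatives called Nfkbie, the block without that library. With it Nfkbie was lower in c-Kit KO (adjusted p = 0.0461) and higher in Mettl3 KO cells (adjusted p = 0.035).

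Ifnar2 (chr16:91169618-91202723, plus strand), a chain of the type I interferon receptor, had 216, 229 and 218 counts at rest and 140, 106 and 112 after stimulation in c-Kit KO libraries. Libraries labelled Mettl3 KO had 273, 318 and 206 counts at rest and 118, 172 and 121 after stimulation. All 6 pairs were lower after stimulation without overlap of the groups, with log2 fold changes of -0.89 (SE 0.26, adjusted p = 0.0317) and -0.95 (SE 0.26, adjusted p = 0.0142) in c-Kit KO and Mettl3 KO cells. Isg15 (chr4:156283883-156285303, minus strand), a ubiquitin-like protein induced by type I interferon, had 16.4, 21.8 and 15.3 counts at rest and 19.1, 16.1 and 50.5 after stimulation in c-Kit KO libraries. Its Mettl3 KO libraries had 33.5, 32.2 and 8.68 counts at rest and 197, 57.8 and 52.1 after stimulation. The stimulated Mettl3 KO library of replicate 1 stood far above the rest. Most resting counts were at background, so the size of the fold is uncertain. Isg15 reached 20 counts in 2 unstimulated and 4 stimulated libraries, so it passed the detection rule only through the stimulated ones. The log2 fold change was 2.07 (SE 0.64, adjusted p = 0.0286) in Mettl3 KO and 0.70 (SE 0.67, adjusted p = 0.515) in c-Kit KO cells. Mx1, an interferon-induced GTPase, had group means of 159 and 146 in c-Kit KO and of 167 and 170 in Mettl3 KO cells, and was not called. Ifnar1, the other receptor chain, Ifngr1, a chain of the interferon γ receptor, and Ifna1 were not called either, although Ifngr1 was in Mettl3 KO cells with TMM, with DESeq2 and with the block (adjusted p = 0.116 without and 0.03 with the block, and 0.00322 to 0.475 over all alternatives). Ifna1 belongs to a family of near-identical genes, so its counts are uncertain.

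Among the STAT genes, Stat4 (chr1:52026307-52151423, plus strand), which transmits IL-12 signals, had 274, 235 and 224 counts at rest and 125, 84.7 and 75.5 after stimulation in c-Kit KO libraries. With the label Mettl3 KO it had 235, 260 and 201 counts at rest and 73.9, 66.4 and 79.5 after stimulation. The groups did not overlap, and log2 fold changes were -1.36 (SE 0.26, adjusted p = 0.00358) and -1.66 (SE 0.26, adjusted p = 0.000648). Stat5a (chr11:100750177-100776065, plus strand), which acts downstream of IL-3 and is needed for mast cell survival, had 437, 565 and 387 counts at rest and 465, 628 and 648 after stimulation in c-Kit KO libraries. Mettl3 KO libraries had 691, 438 and 348 counts at rest and 913, 1803 and 627 after stimulation. Its highest value came from replicate 2 of the stimulated Mettl3 KO group, whose lowest library overlapped the resting range. Log2 fold changes were 1.18 (SE 0.39, adjusted p = 0.0365) in Mettl3 KO and 0.33 (SE 0.38, adjusted p = 0.596) in c-Kit KO cells. The paralog Stat5b lies beside Stat5a on chromosome 11, and cross-hybridization between such close paralogs was not tested. Stat5b was not called, although it was lower in c-Kit KO cells with DESeq2 and with the block (log2 fold change -0.77, SE 0.31, adjusted p = 0.106 without and 0.0358 with the block, and 0.0147 to 0.32 over all alternatives). Stat3, Stat6 and Jak3 were not called in either genotype.

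Of the Toll-like receptors, only Tlr6 was called with all libraries. Tlr6 (chr5:65108704-65203497, minus strand) fell in Mettl3 KO cells from 89.8 ± 20.4 to 49.5 ± 7.55 counts (mean ± SD, n = 3), by a log2 fold change of -0.86 (SE 0.26, adjusted p = 0.026). In c-Kit KO cells it went from 76.2 ± 6.39 to 50.4 ± 5.89 counts, a log2 fold change of -0.59 that missed the threshold (SE 0.26, adjusted p = 0.128). Tlr4 was lower after stimulation in 6 of 6 pairs, but was not called (log2 fold change -0.46 and -0.43, adjusted p = 0.615 and 0.603). The other 28 detected members ran from -0.98 (Irf1) to 0.28 (Tlr3) on the log2 scale in c-Kit KO cells and from -0.80 (Tlr1) to 1.11 (Nlrp3) in Mettl3 KO cells.

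**Figure D2:**
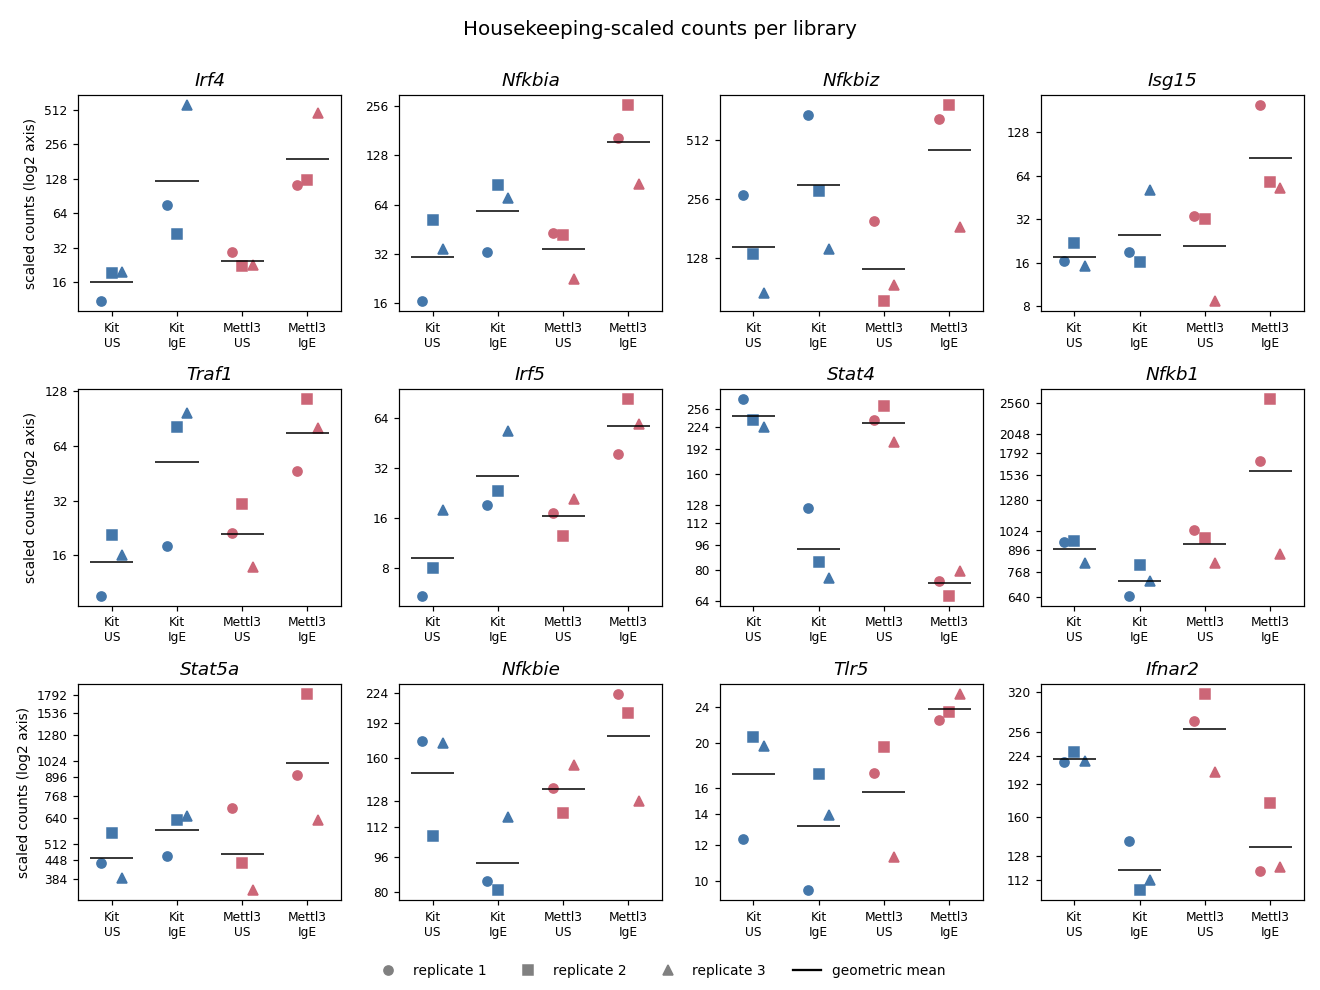
Housekeeping-scaled counts (y axis, log2 scale, differing between panels) of the 12 members with the largest log2 values in the comparisons or interaction in which they were named with a test, in each library of the 4 groups (x axis; US unstimulated, IgE stimulated for 4 h). Symbols mark the replicate number and lines the geometric mean of 3 libraries. Replicate 3 is highest for Irf4 in both stimulated groups and lowest for Nfkb1 and Nfkbia in the stimulated Mettl3 KO group.

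Leaving out single libraries changed these counts. Without the unstimulated c-Kit KO library 1 only Stat4 was called in c-Kit KO cells. Without unstimulated library 3 the 2 calls were Irf5 and Stat4, without stimulated library 2 Irf4 and Stat4, and without stimulated library 3 Irf1 and Stat4. In these 4 fits 46, 57, 81 and 51 of all 545 probes were called, beside 103 with all libraries. In Mettl3 KO cells 3 members were called without unstimulated library 2 (Nfkbia, Stat4 and Traf1) and 5 without unstimulated library 3 (Ifnar2, Irf5, Nfkbia, Stat4 and Tlr6). Without stimulated library 1 there were 5 (Irf4, Irf5, Nfkbia, Stat4 and Traf1) and without stimulated library 2 there were 6 (Ifnar2, Irf4, Isg15, Nfkbia, Stat4 and Tlr6). Without stimulated library 3 there were 12, which lacked Irf4 and Tlr6 and added Nfkb1, Nlrp3 and Traf6, and the log2 fold change of Irf4 was 2.26. Over all probes these 5 fits called 140, 134, 121, 133 and 180, beside 178 with all libraries. Irf4 had 1.79 in c-Kit KO cells without their stimulated library 3. Tlr1 was called lower in both genotypes without the unstimulated c-Kit KO library 2, and was the only member called in c-Kit KO cells without replicate 2, beside 49 of all probes.

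Over all alternatives the calls in c-Kit KO cells held in 27 of 29 for Stat4, 23 of 29 for Irf4, 19 of 29 for Ifnar2 and 18 of 28 for Traf1. In Mettl3 KO cells they held in 29 of 29 for Stat4, 28 of 29 for Nfkbia, 24 of 29 for Irf4 and Ifnar2, 24 of 28 for Irf5 and 23 of 28 for Traf1. Nfkbiz followed with 22 of 29, Isg15 with 22 of 28, Stat5a with 21 of 29, Tlr6 with 19 of 29 and Traf2 with 18 of 29. The Traf2 call was lost with TMM, and those of Tlr6 and, in c-Kit KO cells, Ifnar2 with 16 housekeeping probes. With the replicate number as a block the counts were 7 of 39 in c-Kit KO and 14 of 39 in Mettl3 KO cells, beside 156 and 223 of all 545 probes, and included the 4 and 11 members called without it. Scaling by TMM lowered the median of all probes from 0.02 to -0.14 in Mettl3 KO cells, and the share of calls that were higher there was 67.4% with housekeeping scaling and 55.2% with TMM. Among members, TMM called 7 higher and 4 lower in Mettl3 KO cells.

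Other genes of these pathways were followed through gene lists, which were chosen with earlier results of these data known. Counts of calls in them are descriptions and not tests. Among 15 tested adaptors and regulators of sensors and NF-κB, 2 rose and 1 fell in c-Kit KO cells and 5 rose and 1 fell in Mettl3 KO cells, with medians of -0.46 and -0.37. Of all 545 probes 12.1% rose and 6.79% fell in c-Kit KO and 22.0% rose and 10.6% fell in Mettl3 KO cells, with medians of -0.05 and 0.02. Peli1, a ubiquitin ligase of Toll-like receptor signalling, rose by 1.19 (SE 0.32, adjusted p = 0.0244) and 1.85 (SE 0.32, adjusted p = 0.00117) on the log2 scale. Ripk2, the kinase downstream of Nod1 and Nod2, rose by 1.46 (SE 0.38, adjusted p = 0.0208) and 1.80 (SE 0.37, adjusted p = 0.00359). Map3k14, the NF-κB-inducing kinase of the non-canonical pathway, rose in Mettl3 KO cells by 1.60 (SE 0.35, adjusted p = 0.00497) and had a log2 fold change of 0.51 (SE 0.35, adjusted p = 0.359) in c-Kit KO cells, from resting means near 20 counts. Tmem173, the gene of the cyclic dinucleotide sensor STING, fell by 1.67 (SE 0.34, adjusted p = 0.0062) and by 1.91 (SE 0.34, adjusted p = 0.00151). Malt1, a protease of NF-κB activation, and Tnfaip3, the NF-κB inhibitor A20, were the remaining calls, named after their values were seen. They rose in Mettl3 KO cells by 0.98 (SE 0.24, adjusted p = 0.0101) and 2.25 (SE 0.56, adjusted p = 0.00983). Cd14 was not detected.

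Genes known as NF-κB targets had the highest medians of the 5 lists, with 6 of 11 tested called higher in c-Kit KO and 8 of 11 in Mettl3 KO cells, and none called lower in either, beside 12.1% and 22.0% of all probes called higher. This list was chosen with earlier results of these data known, so its share is no independent support. The medians of the list were 2.52 and 4.02 on the log2 scale. The first is the value of Ptgs2, which was not called in c-Kit KO cells (adjusted p = 0.0699 by edgeR's quasi-likelihood test). Its resting mean there was 13.8 counts, at background, so the size of that median is uncertain. The chemokine Ccl4 went from 101 ± 23.8 to 1698 ± 412 counts in c-Kit KO and from 188 ± 167 to 9834 ± 6981 in Mettl3 KO cells (mean ± SD, n = 3). Il6 went from 777 ± 141 to 2939 ± 618 and from 850 ± 344 to 7555 ± 4842, and Gadd45b, a stress-response gene, from 51.1 ± 11.7 to 460 ± 174 and from 57.6 ± 26.1 to 930 ± 461. These gave log2 fold changes of 4.08, 1.92 and 3.16 in c-Kit KO and 5.71, 3.15 and 4.02 in Mettl3 KO cells, with adjusted p-values of 0.00394, 0.0177 and 0.00128 and of 0.000512, 0.000656 and 0.000257. Ccl3 and Tnf were also called higher in both genotypes, and Cxcl2 and Ptgs2 in Mettl3 KO cells. The latter 2 rose there from resting means of 19.8 and 25.9 counts, so the size of the fold is uncertain. Il1b rose by 4.11 (SE 0.55, adjusted p = 0.000597) and 4.27 (SE 0.56, adjusted p = 0.000285). Icam1, Vcam1 and Ier3 were not called in either genotype, and Vcam1 was lower at the study's rule in c-Kit KO cells (log2 fold change -0.92, adjusted p = 0.0792). Cxcl1 and Cd83 were not detected.

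Interferon-stimulated genes outside the name rule were tested next, with 1 of 14 tested higher and 1 lower in c-Kit KO cells, 2 higher and 2 lower in Mettl3 KO cells, and medians of -0.24 and -0.34. These counts stand beside the same 12.1% and 6.79%, and 22.0% and 10.6%, of all probes. Ido1 and Siglec1 were not detected. Tnfsf10, the gene of the death ligand TRAIL, rose by 1.70 (SE 0.49, adjusted p = 0.0317) and 2.13 (SE 0.49, adjusted p = 0.00633), while Usp18, which removes Isg15 from proteins and restrains the type I interferon receptor, fell by 1.21 (SE 0.36, adjusted p = 0.0368) and by 1.37 (SE 0.37, adjusted p = 0.0144). Psmb9, an immunoproteasome subunit, fell and Psme2, a proteasome activator, rose in Mettl3 KO cells (adjusted p = 0.0419 and 0.0484). Of 5 tested receptors that use JAK and STAT proteins, 1 rose and 1 fell in c-Kit KO and 2 rose and 2 fell in Mettl3 KO cells, with medians of 0.52 and 0.64, and Csf2ra, Il5ra, Il6ra and Csf3r were not detected. Il21r rose by 1.87 (SE 0.58, adjusted p = 0.0392) and 1.84 (SE 0.58, adjusted p = 0.0288) from resting means near 20 counts, which leaves the size of the fold uncertain, and Il4ra fell by 1.00 (SE 0.25, adjusted p = 0.0181) and by 1.36 (SE 0.25, adjusted p = 0.00178). Il10ra rose and Il3ra, the IL-3 receptor α chain, fell in Mettl3 KO cells (adjusted p = 0.0429 and 0.0397). Of 5 STAT target and feedback genes only Pim2, a survival kinase, was called. It fell by 1.93 (SE 0.27, adjusted p = 0.000597) and fell by 1.42 (SE 0.26, adjusted p = 0.00171), and the medians of that list were -0.33 and 0.00. Socs1, Socs2 and Socs3, feedback inhibitors of cytokine signalling, and Bcl6, a transcriptional repressor, were not called.

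At rest, none of the 39 detected members was called between libraries labelled Mettl3 KO and c-Kit KO, as for 0.0% of all probes with edgeR. DESeq2 and limma also called 0 members, and 0 had an unadjusted p under 0.05 with any of these tools. An unadjusted p of at most 0.05 with a fold of at least 1.5, called the study's rule, took 0 members beside 1.28% of all probes. Only the thresholds are the study's, and the p-values are those of edgeR in place of its two-tailed t test. The 3 members of smallest p were Nlrp3 (log2 fold change -0.83, SE 0.58), Irf5 (0.64, SE 0.54) and Tlr1 (0.40, SE 0.36), all with an adjusted p of 0.997. Resting Nlrp3 counts were 307, 219 and 101 with the label c-Kit KO and 160, 104 and 88.5 with the label Mettl3 KO, lower in 3 of 3 pairs with overlapping ranges.

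After stimulation 0 of the 39 detected members passed an adjusted p of 0.05 between the genotypes, beside 0.917% of all probes, and 7 had an unadjusted p under 0.05 with edgeR. At the study's rule 7 members passed, all higher with the label Mettl3 KO. This is 17.9%, near the 14.1% of all probes that passed in either direction. Over all probes, calls at an adjusted p under 0.05 were also mostly higher, 5 of 5 with edgeR and 20 of 23 with DESeq2. The 7 members are Isg15, Nfkb1, Nfkbia, Nfkbie, Stat5a, Tlr5 and Traf6, and 3 of them encode an NF-κB subunit or an IκB protein. Nfkbiz, which also encodes an IκB protein, did not pass (log2 fold change 0.54, SE 0.66, adjusted p = 0.775). DESeq2 called 1 member, Nfkb1, beside 23 of all 545 probes, and limma 0. The median log2 fold change of members was 0.22 beside 0.20 over all probes. With TMM both medians came near 0 (0.05 and 0.01). The part of a shift of the whole panel in the values below was not tested.

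Stimulated Nfkb1 counts of libraries 1, 2 and 3 were 645, 807 and 716 with the label c-Kit KO and 1697, 2633 and 869 with the label Mettl3 KO. The ranges did not overlap, and the log2 fold change was 1.26 (SE 0.33, adjusted p = 0.122, with 0.00436 to 0.823 over all alternatives). Without the stimulated Mettl3 KO library 3, Nfkb1 and Nfkbie were called, and with the block and without that library Nfkb1, Nfkbia and Nfkbie, beside 33 and 45 of all 545 probes, so the gain was not limited to members. Nfkbie was higher in 3 of 3 pairs (log2 fold change 0.96, SE 0.30, adjusted p = 0.182), by little in replicate 3. Nfkbia likewise was higher in 3 of 3 pairs (1.43, SE 0.51, adjusted p = 0.212). Isg15 had a log2 fold change of 1.82 (SE 0.63, adjusted p = 0.205), and its replicate 3 had 50.5 counts with the label c-Kit KO and 52.1 with the label Mettl3 KO. It was called by 1 of 28 alternatives, the fit without replicate 3 (adjusted p = 0.0241). There Isg15 and Nfkb1 were the members among 33 of all 545 probes called. Stat5a had a log2 fold change of 0.94 (SE 0.39, adjusted p = 0.276), higher in 2 of 3 pairs, and Traf6 of 0.78 (SE 0.33, adjusted p = 0.292), higher in 3 of 3. Tlr5, the flagellin receptor, had 9.54, 17.1 and 13.9 counts with the label c-Kit KO and 22.5, 23.4 and 25.7 with the label Mettl3 KO (0.81, SE 0.30, adjusted p = 0.219), all at background.

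Among the gene lists at the study's rule, 6 of 11 tested NF-κB targets and 3 of 15 adaptors and regulators were higher with the label Mettl3 KO after stimulation. So were 1 of 14 interferon-stimulated genes, 0 of 5 receptors and 0 of 5 STAT target and feedback genes, and none was lower in any list. Of all probes 14.1% passed in either direction. The lists were chosen with earlier results known. Medians were 1.36, 0.28, 0.16, -0.03 and 0.17, beside 0.20 over all probes. Ccl4 had a log2 fold change of 2.53 (SE 0.72, adjusted p = 0.133) and Il6 of 1.36 (SE 0.46, adjusted p = 0.205), while Il1b had -0.17 (SE 0.48, adjusted p = 0.902). Map3k14 had 1.04 (SE 0.34, adjusted p = 0.185).

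Whether the response to stimulation differed between the genotypes was asked by the interaction. It gave 0 calls among the 39 detected members, beside 0.0% of all probes, with edgeR, and 0 members with DESeq2 and limma. Of all 545 probes DESeq2 called 2. Without the stimulated Mettl3 KO library 3, edgeR called 5, and 3 with the block, with 0 members among them. At an unadjusted p under 0.05 there were 3 members by edgeR, 1 by DESeq2 and 3 or 2 by limma with a pseudocount of 1 or 20, and edgeR with TMM gave 1. The 3 members of edgeR with housekeeping scaling also passed the study's rule, beside 4.22% of all probes. They are Nfkb1 (interaction 1.21 on the log2 scale, SE 0.47), Nfkbie (1.10, SE 0.43) and Tlr5 (0.98, SE 0.43), all with an adjusted p of 0.993. Over all alternatives their lowest adjusted p was 0.0826 for Nfkb1 and Nfkbie and 0.474 for Tlr5. So a call in Mettl3 KO cells without one in c-Kit KO cells, as for Nfkbia, Nfkbiz, Isg15 and Stat5a, was not shown to differ between the genotypes.

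Libraries of the same replicate number shared part of their level. Tlr4 had geometric means of 231, 330 and 117 counts over the 4 libraries of replicates 1, 2 and 3, and the replicate number took 68.6% of its sum of squares on the log2 scale beside 13.6% for stimulation. Nlrp3 had geometric means of 258, 217 and 94.5 with 64.2% for the replicate number, and Nfkbiz 391, 218 and 120 with 37.8%, beside 46.2% for stimulation. For Stat4, stimulation took 91.8% and the replicate number 2.23%. Irf4 had a geometric mean of 105 counts in replicate 3, where its stimulated libraries were highest, beside 40.7 and 39.0 in replicates 1 and 2.

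To set these responses beside sequence, promoters were taken from RefSeq (GRCm38.p6), 250 bases before to 50 after each start. They covered 42 members with 54 promoters, and Nfkb1 and Nfkbiz were among the members without one. A κB match was searched as GGGA, any 4 bases and CC, and an interferon response element core as GAAA, any 2 bases and GAAA, each on both strands. κB matches lay in 27.8% of the members' promoters beside 20.7% of all 32851, and GAAA pairs in 18.5% beside 3.44%. Among members called higher in a stimulation comparison, 4 of 8 promoters held a κB match, in Irf4, Nfkbia, Stat5a and, after the start, Traf2, and Isg15 held a GAAA pair. Among those called lower, 0 of 5 held a κB match, and Stat4 and Tlr6 held a GAAA pair. The matches of the 3 genes with matches before the start are shown, with 10 bases on either side, to let the letters be read beside the responses. They are given 5′ to 3′ on the strand of the gene, with the match in capitals, and lie at chr12:55492840-55492869 and chr12:55492657-55492686 (Nfkbia, minus strand), chr13:30749041-30749070 (Irf4, plus strand) and chr11:100860361-100860390 (Stat5a, plus strand).
Nfkbia, distal: gcaggctgcaGGGAAGTACCtagagggagg
Nfkbia, proximal: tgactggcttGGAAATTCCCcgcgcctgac
Irf4: tgtctgaagtGGGACAGCCCttgacccggt
Stat5a: gaggcaaggaGGGAGCGACCgctgctggga
A match describes letters and not binding.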

How the data were processed

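From each sample, the authors used 40 ng of RNA on the nCounter Myeloid Innate Immunity Panel, and deposited raw barcode counts for 768 probes in 12 libraries (734 endogenous, 20 housekeeping, 6 positive and 8 negative controls), with no alignment or genome build. The deposited file does not mark housekeeping probes, which were listed by hand. Summary columns over all libraries (mean, lowest, highest and coefficient of variation) were not used.

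Counts were scaled by the geometric mean of the housekeeping probes. The 545 endogenous probes with at least 20 counts in at least 3 libraries were tested with edgeR 4.0.16 (R 4.3.3) at its default quasi-likelihood settings, in 1 model of the 4 groups, with library sizes from the housekeeping factors and Benjamini-Hochberg adjustment within each comparison. Standard errors are the log2 fold change over the root of the F statistic. The test was checked on simulated counts.

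Members named with a test have an adjusted p under 0.05 in a stimulation comparison, or pass the study's rule in a genotype comparison or the interaction. Where fewer than 3 passed, they are the 3 of smallest p. The study's rule is a fold of at least 1.5 and p, not adjusted, up to 0.05. It was applied here to edgeR's p-values, while the study used a two-tailed t test. Up to 4 genes of each list are named by smallest p, and other called genes of the lists were named after their values were seen. The values of 1 member are counted in the totals and not reported here. The members and lists were chosen with earlier results of these data known.

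Replicate numbers come from the labels. Deviations from the group means correlated in all 18 same-numbered pairs of libraries (r from 0.16 to 0.612), so the numbers were taken to pair the samples. In 36 pairs of different number r ran from -0.492 to 0.129. Each group was centred on its own mean, which ties these values to the first, so they are no independent comparison. The main model leaves the pairing out, and the replicate block takes it in. Endogenous totals of 504238 to 737910 counts and negative control means of 7.13 to 22.8 per library set the precision, and counts near 20 cannot be told from background. Positive controls had geometric means of 738 and 768 in replicate 1 of the c-Kit KO groups and of 1195 to 1706 elsewhere.

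Alternatives were TMM, 16 housekeeping probes, a positive control factor, DESeq2 1.42.0, limma 3.58.1 with a pseudocount of 1 or 20, no filter, a mean of at least 50 counts, background subtraction, only the groups compared, the replicate block, each replicate left out, and the study's threshold. Chosen after seeing the data were each library left out, the block leaving out library 3 of the stimulated Mettl3 KO group, which the study also lists under another number, robust estimation and adjusted deviances. The last 2 came from 15 edgeR settings that were compared after their counts of calls were seen. These settings called 103 to 105 probes in c-Kit KO and 176 to 180 in Mettl3 KO cells, and the default, which had been chosen first, was kept. Gene positions are from GENCODE vM39 (GRCm39) and promoters from RefSeq (GRCm38.p6), and no position was carried between builds.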

Additional observations from a re-analysis of the deposited data

Results flagged for a closer look

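Nfkb1 was lower after stimulation in all 3 c-Kit KO pairs and higher in all 3 Mettl3 KO pairs. The interaction was 1.21 on the log2 scale (SE 0.47, adjusted p = 0.993 by edgeR's quasi-likelihood test), so the difference did not pass the threshold. Tlr5 had the same pattern of pairs, with an interaction of 0.98 (SE 0.43, adjusted p = 0.993), at counts that never exceeded the negative control mean plus 2 SD. Groups of 3 libraries were not tested for single libraries that stand apart.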

How the results depend on the processing

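In c-Kit KO cells 4 members were called after stimulation, and 7 with DESeq2, 2 with limma and a pseudocount of 20, 2 with only the groups compared, 7 with the replicate block, 9 with the block without the stimulated Mettl3 KO library 3, and 11 at the study's threshold. Over all 545 probes the first 6 of these were 103, 150, 93, 80, 156 and 160. The number of all probes at the study's threshold in c-Kit KO cells is not given here. Without the fold limit, an unadjusted p under 0.05 with edgeR took 11 members and 187 of all 545 probes there. The same limit took 15 members and 233 of all 545 probes in Mettl3 KO cells. In Mettl3 KO cells 11 were called, and 7 with only the groups compared and 14 with the replicate block, beside 178, 149 and 223 of all probes. Between genotypes after stimulation 0 were called by edgeR, 1 with DESeq2, 3 with the block without that library (5, 23 and 45 of all probes) and 7 at the study's threshold, and for the interaction 0 and, at that threshold, 3. Leaving out a replicate number or a single library gave 1 to 5 members in c-Kit KO cells, 1 to 12 in Mettl3 KO cells and 0 to 2 between genotypes after stimulation. Over all 545 probes the same fits called 32 to 108, 71 to 182 and 0 to 33. The interaction and the unstimulated genotypes had 0 members called in all of these. The cause of these differences was not tested, except that fewer samples enter where libraries are left out. The interaction could not be fitted with only the groups compared.

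Of the named members' fold changes under the alternatives, 275 of 316 in c-Kit KO cells, 254 of 316 in Mettl3 KO cells, 83 of 85 between unstimulated and 193 of 201 between stimulated genotypes, and 83 of 83 for the interaction kept their direction and side of the threshold. Isg15 in c-Kit KO cells ranged from -0.13 to 1.15 (log2) as replicates were left out, and was -0.0155 without the stimulated library 3. With background subtracted, Irf5 was -0.059 and Tlr1 -0.25 between unstimulated genotypes. Among members, the replicate block with all libraries changed no calls other than those given in the report. Its calls in the gene lists and markers were not examined. Counts near 20 lie at background and limit Irf5, Isg15, Traf1, Tlr2 and Tlr5, which reached 20 counts in under 3 unstimulated libraries.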
